A study of Mus musculus with 14 samples.

Results

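Wide domains of H3K27ac outside promoters were examined in Y1 cells, a mouse adrenocortical tumour cell line. A domain was a region of the authors' deposited region table at least 3000 bases wide that the table annotated as intronic or distal intergenic. The rule selected 675 of 40772 regions, of which 353 were intronic and 322 distal intergenic. It named no difference between treatments, but each region is a merger of peaks from the separate libraries, so that a stretch that was wide in 1 group alone could pass. Cells had been starved of serum for 48 h and were collected 5 h after they received 10% fetal bovine serum with FGF-2 at 10 ng/ml, or 10% fetal bovine serum alone. H3K27ac was profiled in 2 libraries with FGF-2 and 2 with serum alone, and polyadenylated RNA in 3 libraries with FGF-2 and 3 with serum alone. All groups came from the same cell line and shared the starvation and the serum. The labels do not say whether replicates were separate cultures, so p-values measure only the spread between these samples.

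Acetylation of lysine 27 of histone H3 marks active promoters and active enhancers, the distal sequences at which transcription factors recruit acetyltransferases and raise transcription of a gene. Where enhancer elements lie close together, their acetylated stretches can merge into a wide domain, and such domains often lie near genes that define a cell's state or its response to a signal. FGF-2 is a secreted growth factor that acts through receptor tyrosine kinases and the ERK pathway. ERK phosphorylates ETS transcription factors and raises AP-1, while phosphatases of the Dusp family and the Sprouty and Spred proteins act as its feedback inhibitors.

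Sequence of these domains was at hand only where a RefSeq gene start lay inside one. A whole window of 250 bases before to 50 bases after a RefSeq start (build GRCm38.p6) lay inside 44 of the 675 domains. Of these 44, 7 were called higher and 1 lower with FGF-2, against 12.6% and 3.73% of all regions. The windows below belong to 5 of those 8 called domains, among them the domain of the largest change and the single one called lower. That one, tied to Lgalsl, had 128 and 178 with FGF-2 and 336 and 186 with serum alone (log2 change -0.72 ± 0.26, SE), so that the groups nearly met, and it was not called in the authors' deposited table (false discovery rate 0.391). The starts of Dusp5 and Fgf2 are shown because domains on both sides of them were called higher. Capitals mark matches, on either strand, to TGANTCA (AP-1), TGACGTCA (a cyclic AMP response element), CCGGAAGT (ETS), CAAGGTCA (SF-1) or GGAATG (TEAD). Sequences are from RefSeq and read 5′ to 3′ on the strand of the named gene.
Gm30826 start, inside the Mirt1 domain: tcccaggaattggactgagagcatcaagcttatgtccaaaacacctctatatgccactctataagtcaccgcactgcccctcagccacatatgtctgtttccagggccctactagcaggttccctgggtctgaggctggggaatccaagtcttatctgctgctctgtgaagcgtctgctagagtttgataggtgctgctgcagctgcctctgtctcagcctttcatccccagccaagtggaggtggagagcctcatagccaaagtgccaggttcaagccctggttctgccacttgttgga
Gm31608 start, inside the Mchr1 domain: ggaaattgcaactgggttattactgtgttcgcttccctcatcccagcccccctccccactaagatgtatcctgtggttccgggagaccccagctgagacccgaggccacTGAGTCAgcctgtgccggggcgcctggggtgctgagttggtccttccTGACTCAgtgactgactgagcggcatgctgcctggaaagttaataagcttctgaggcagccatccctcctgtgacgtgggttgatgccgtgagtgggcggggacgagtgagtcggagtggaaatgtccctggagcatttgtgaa
Gm38928 start, inside the Sspn domain: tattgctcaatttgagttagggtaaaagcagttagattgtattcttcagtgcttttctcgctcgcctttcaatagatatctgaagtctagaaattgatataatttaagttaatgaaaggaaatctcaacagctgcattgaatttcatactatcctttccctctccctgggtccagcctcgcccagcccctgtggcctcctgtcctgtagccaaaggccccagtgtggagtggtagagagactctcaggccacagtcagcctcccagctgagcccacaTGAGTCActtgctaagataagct
Gm31742 start, inside the Syne3 domain: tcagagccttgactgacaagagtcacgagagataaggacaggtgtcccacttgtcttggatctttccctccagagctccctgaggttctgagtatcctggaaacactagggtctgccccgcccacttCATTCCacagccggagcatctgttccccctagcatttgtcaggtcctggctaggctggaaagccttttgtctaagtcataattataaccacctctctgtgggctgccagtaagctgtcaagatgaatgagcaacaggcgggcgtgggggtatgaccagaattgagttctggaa
Gm39608 start, inside the Lgalsl domain: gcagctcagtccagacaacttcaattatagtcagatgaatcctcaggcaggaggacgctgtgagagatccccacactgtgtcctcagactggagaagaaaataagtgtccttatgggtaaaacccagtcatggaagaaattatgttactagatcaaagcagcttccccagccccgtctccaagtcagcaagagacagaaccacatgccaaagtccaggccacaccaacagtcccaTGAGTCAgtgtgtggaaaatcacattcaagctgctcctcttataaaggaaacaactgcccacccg
Dusp5 start, between 7 domains: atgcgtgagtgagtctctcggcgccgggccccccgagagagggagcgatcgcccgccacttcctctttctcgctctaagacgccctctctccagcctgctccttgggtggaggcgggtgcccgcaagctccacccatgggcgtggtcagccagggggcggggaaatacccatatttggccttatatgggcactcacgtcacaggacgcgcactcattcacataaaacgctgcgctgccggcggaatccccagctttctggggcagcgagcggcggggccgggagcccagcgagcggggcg
Fgf2 start, between 2 domains: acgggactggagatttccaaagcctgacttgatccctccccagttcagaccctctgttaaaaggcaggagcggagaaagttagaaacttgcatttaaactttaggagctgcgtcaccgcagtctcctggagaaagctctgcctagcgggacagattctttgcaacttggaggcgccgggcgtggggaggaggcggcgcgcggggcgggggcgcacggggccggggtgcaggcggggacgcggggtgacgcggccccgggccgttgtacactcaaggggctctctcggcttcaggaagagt
The windows lie, in the same order, at chr19:53492600-53492899 on the minus strand, chr15:81216889-81217188 on the plus strand, chr6:145977439-145977738 on the minus strand, chr12:105003210-105003509 on the plus strand, chr11:20898695-20898994 on the minus strand, chr19:53528895-53529194 on the plus strand and chr3:37348403-37348702 on the plus strand. The AP-1 letters were present in the Mchr1, Sspn and Lgalsl windows, that is, in domains called higher and in the one called lower. Of the 60 windows inside domains, 18.3% held the AP-1 letters, against 7.81% of all 32851 RefSeq start windows. The TEAD letters were in 25.0% of the windows inside domains and in 14.7% of all windows. None of the 60 windows held the cyclic AMP, ETS or SF-1 letters, which were in 1.79%, 3.89% and 1.56% of all windows. The shares were not tested.

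The H3K27ac libraries held 12447135 and 11840994 fragments with FGF-2 and 12856806 and 14156846 with serum alone. Of these, 34.1% and 34.6% with FGF-2, and 35.3% and 28.0% with serum alone, fell in the regions, so that serum library 2 stood apart. The deposited signal moves in whole steps of a read scaled to the smallest library, in which 1 read is worth 0.951 and 1 with FGF-2 and 0.921 and 0.836 with serum alone. Whether input reads were subtracted from it is not given in the sources used here, and the inputs held 12241177 and 12576377 fragments with FGF-2 and 15672630 and 110273836 with serum alone, so that the input of serum library 2 was much the deepest. The RNA libraries held 6403095 to 12696426 counts in genes with FGF-2 and 5625004 to 9101089 with serum alone. Of 10 marker genes of adrenocortical cells, summed levels were 2267 to 3752 CPM with FGF-2 and 664 to 911 CPM with serum alone. Star, which moves cholesterol into mitochondria, made up most of the gap, at 2296 CPM with FGF-2 and 165 CPM with serum alone. The steroid hydroxylase genes Cyp11a1 (73.7 CPM with FGF-2 and 124 CPM with serum alone) and Cyp11b1 (3.45 CPM with FGF-2 and 9.24 CPM with serum alone) fell by edgeR (adjusted p = 0.0454 and 0.0077). Nr5a1, the steroidogenic factor SF-1, averaged 71.3 CPM with FGF-2 and 74.3 CPM with serum alone, while Nr0b1 and Cyp21a1, also adrenocortical markers, had no count in any library. Of the markers of other cell types, the 8 fibroblast and capsule genes summed to 2034 to 2909 CPM with FGF-2 and 2800 to 3501 CPM with serum alone, nearly all of it Col1a1 and Col3a1, with Col1a2 and Dcn at 0. The 7 medulla genes summed to 2.03 to 3.62 CPM with FGF-2 and 5.45 to 7.13 CPM with serum alone, most of it Ddc, while Th and Dbh were at 0, and the 7 endothelial and blood genes summed to 9.71 to 11.99 CPM with FGF-2 and 8.99 to 14.9 CPM with serum alone. The part of these markers in the results was not tested.

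The domains had a median width of 3689 bases, and their quartiles were 3284.5 and 4637 bases. Of the 675 domains, 411 were under 4000 bases and 3 were at least 10000 bases wide. Their median distance to the nearest annotated start was 29059 bases, and 68.9% lay within 50000 bases. First introns held 180 of the 353 intronic domains (51.0%), against 37.9% of the 12639 narrower intronic regions. The domains lay on 20 chromosomes and 1 unplaced contig, with the most on chromosomes 5 (60 domains) and 7 (49 domains), and 128 of them lay within 12500 bases of another. They were tied to 535 gene symbols, 436 of which had a single domain.

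Domains carried a small but steady share of the acetylation. They held 7.69% and 7.30% of all region signal with FGF-2 and 6.88% and 7.29% with serum alone, or 7.50 ± 0.27% and 7.08 ± 0.29% (SD, n = 2 each), and the second libraries of the groups had nearly the same share. Their median signal was 356 and 350 with FGF-2 and 341 and 290 with serum alone. Per kb of width, the median domain had a signal of 93.4 and 89.9 with FGF-2 and 86.4 and 72.7 with serum alone, and the median narrower intronic or intergenic region had 48.9 and 44.2 with FGF-2 and 41.8 and 36.5 with serum alone. Wide domains were thus also denser than narrower regions in all 4 libraries. The authors' peak lists, called in each library against its own input, had a peak in 670 of the 675 domains in all 4 libraries. Every domain had a peak in both FGF-2 libraries, and 3 domains, tied to Tnfrsf19, Fgf2 and Rnf217, had none in either serum library. In 243 domains the merged peaks of each group by itself reached 3000 bases. In 149 domains those of the FGF-2 libraries did and those of the serum libraries did not, in 199 the reverse was so, and in 84 neither group reached the limit by itself.

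More domains gained than lost H3K27ac with FGF-2. In bulk libraries, fewer cells that carry a mark or transcript and less of it per cell cannot be told apart. The limma test over all 40772 regions, on log2(signal + 1) with Benjamini-Hochberg adjustment, called 138 domains higher (20.4%) and 42 lower (6.22%) with FGF-2, against a background of 12.6% higher and 3.73% lower among all regions. Among narrower intronic and intergenic regions 17.3% were higher and 4.82% lower, and among the 1267 promoter regions at least 3000 bases wide 5.84% were higher and 1.10% lower. The 2 FGF-2 libraries lay above both serum libraries in 311 domains (46.1%, against 33.6% of all regions) and below both in 154 (22.8%, against 18.0%). A change of at least 1 on the log2 scale was reached by 64 of the domains called higher (9.48% of domains) and 13 of those called lower (1.93%), below the 10.9% and 2.86% of all regions. The median change was 0.17 for the domains and 0.11 for all regions. Of 132 domains at least 5000 bases wide, 32 were higher and 4 lower. The intronic domains (75 higher and 25 lower of 353) and the intergenic ones (63 higher and 17 lower of 322) had similar counts, and their difference was not tested.

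The width rule bears on these shares, because a domain that passed through the group in which it is high had to differ. Of the 243 domains that reached 3000 bases in both groups, 30 were higher (12.3%) and 4 lower (1.65%), near and below the background of all regions. Of the 149 that reached it with FGF-2 alone, 83 were higher and 0 lower, and of the 199 that reached it with serum alone, 1 was higher and 38 lower. Of the 84 that reached it in neither group, 24 were higher and 0 lower. The excess of calls over the background therefore cannot be told apart from the choice by width. An adjusted p is printed below for a domain where both groups reached the limit, and changes of other domains are descriptions.

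The balance between gains and losses depended on how the libraries were scaled. Centring each library on its median region lowered every change by 0.18 and gave 133 domains higher and 120 lower (background 9.34% and 6.55%), of which 132 and 42 were among those called before. The edgeR test on recovered reads gave 177 higher and 140 lower (background 10.6% and 6.69%), and the authors' deposited table, at its own false discovery rate of 0.05, gave 158 and 44 (background 8.33% and 1.64%). None of the 138 and 42 called domains changed sign in any of these. That outcome was all but set beforehand, because the smallest called changes were 0.62 and -0.65 and centring moved them by 0.18. Without FGF-2 library 1 the counts were 27 higher and 6 lower, without FGF-2 library 2 they were 43 and 6, without serum library 1 they were 263 and 48, and without serum library 2 they were 169 and 121.

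**Figure D1:**
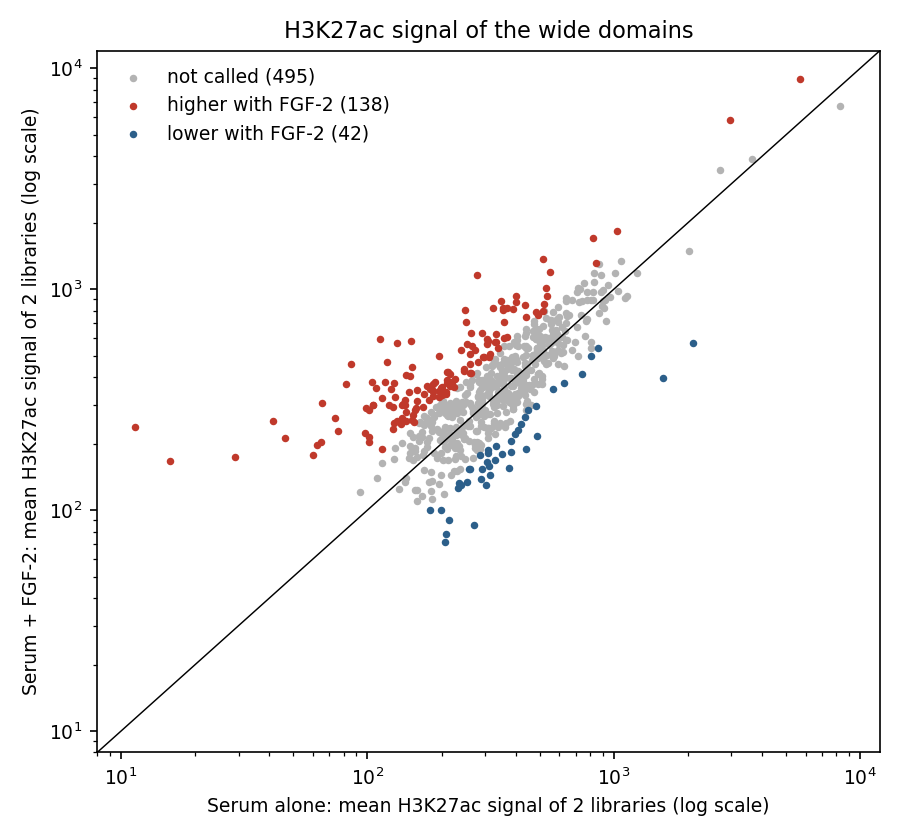
Mean H3K27ac signal of the 675 domains with serum and FGF-2 (vertical, log scale) and with serum alone (horizontal, log scale), each over 2 libraries, with 1 point per domain and the diagonal marking equality. The 138 domains called higher lie above the diagonal and the 42 called lower below it, and the largest gains are at domains of low signal with serum alone.

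The largest gains were at domains that were wide with FGF-2. Peaks of either serum library covered at most 34.8% of such a domain, so that their low serum signal comes with how they were chosen. An intergenic domain tied to Otos, which encodes the inner ear protein otospiralin (chr1:92717385-92720608, 68544 bases upstream of its start), had a signal of 278 and 200 with FGF-2 and 2.76 and 20.1 with serum alone. The 2.76 is 3 reads, so the fitted change of 4.73 ± 0.38 (log2, SE) rests on few serum reads, and it was not called after centring. Otos RNA was too low to test. A domain 89636 bases from the start of Tnfrsf19, a receptor of the tumour necrosis factor receptor family (chr14:60945035-60948351), had 207 and 127 with FGF-2 and 8.29 and 23.4 with serum alone, a change of 3.44 ± 0.33. Peaks covered 0% and 7.48% of the Otos domain in the serum libraries and none of the Tnfrsf19 domain.

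An intronic domain of Rnf217, a ubiquitin ligase gene (chr10:31591125-31594649), had 211 and 138 with FGF-2 and 33.2 and 25.1 with serum alone (2.52 ± 0.30). The intergenic domain of C330024C12Rik, a transcript with no known role (chr17:87170688-87176879), had 675 and 519 with FGF-2 and 110 and 115 with serum alone (2.39 ± 0.25). A domain tied to Rasgrf1, which encodes an exchange factor that activates Ras (chr9:89868703-89872186), had 356 and 257 with FGF-2 and 54.3 and 76.1 with serum alone (2.22 ± 0.26). In each of these both FGF-2 libraries were more than 3 times either serum library, while the RNA of C330024C12Rik and Rasgrf1 was too low to test.

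A group of 7 gains surrounded Dusp5, the gene of a nuclear phosphatase that dephosphorylates ERK. Over 152621 bases (chr19:53402739-53555359), 7 domains followed each other, all 7 were called higher, all 7 reached 3000 bases with FGF-2 and not with serum alone, and their changes ran from 1.50 to 2.41 with a median of 1.95. The table ties them to Dusp5, to Smndc1, a gene of the spliceosome, and to the transcript Mirt1. The domain 13066 bases downstream of the Dusp5 start (chr19:53542384-53546513) had a signal of 496 and 424 with FGF-2 and 79.2 and 92.8 with serum alone (2.41 ± 0.26). The widest of the 7 (chr19:53408693-53415435) had 1255 and 1060 with FGF-2 and 252 and 306 with serum alone (2.05 ± 0.23). The domain that holds the Gm30826 window printed above (chr19:53489378-53493035) had 394 and 351 with FGF-2 and 54.3 and 109 with serum alone (2.25 ± 0.26). The groups did not overlap at any of the 7.

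The gains were not limited to the wide domains of this locus. From 200 kb upstream to 100 kb downstream of the Dusp5 start the table lists 39 regions. Of the 32 that were not wide domains, 24 were also called higher and 0 lower. Among all regions, 12.6% were called higher and 3.73% lower. The locus was picked for the gains of its domains, so these counts describe it and were not tested against that background. Regions at the promoters of Smndc1, Mxi1 and Smc3 were among those not called. Dusp5 RNA was counted 48, 45 and 34 times with FGF-2 and 1, 2 and 1 times with serum alone, so its rise of 4.84 ± 0.44 (edgeR adjusted p = 4.1e-05) rests on few counts. Smndc1 (1.83 ± 0.46; edgeR adjusted p = 0.00901) and Mirt1 (2.15 ± 0.61; edgeR adjusted p = 0.0159) also rose, at mean levels of 2.57 and 1.66 CPM with FGF-2 against 0.714 and 0.431 CPM with serum alone.

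**Figure D2:**
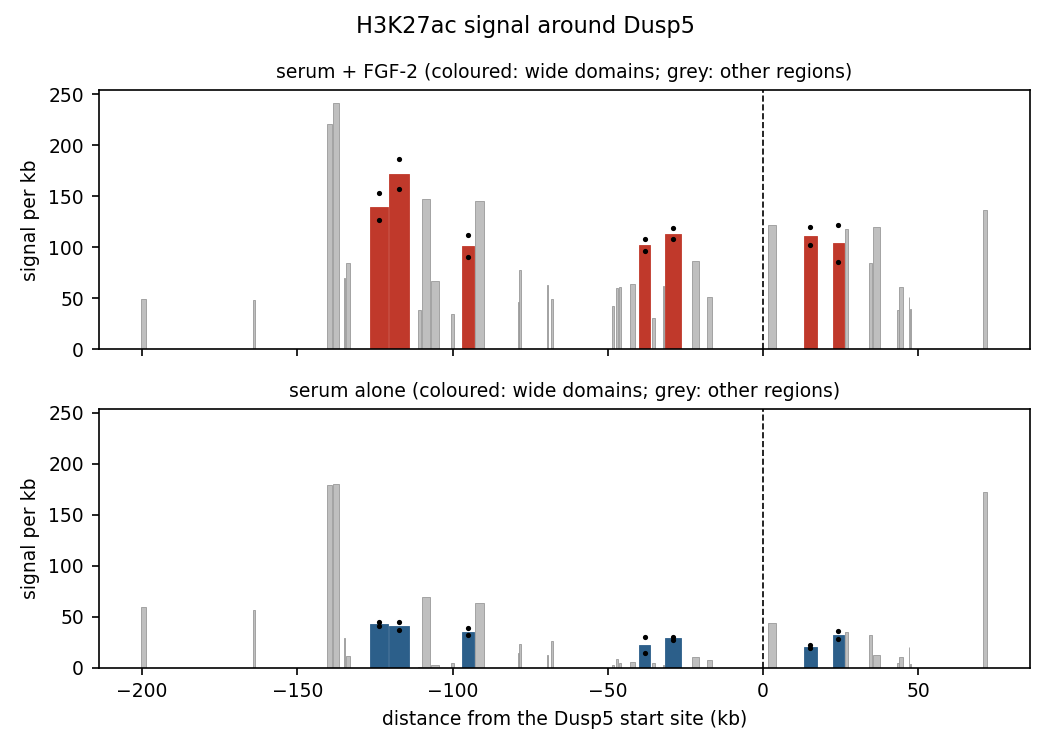
H3K27ac signal per kb (vertical) of the 39 regions around the Dusp5 start against distance in kb (horizontal), with FGF-2 above and serum alone below; bars are means of 2 libraries as wide as the region, coloured for the 7 wide domains and grey for the 32 others, and dots are single libraries of the domains. The 7 coloured bars are taller with FGF-2 than with serum alone.

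The 8 largest losses were smaller than the gains. The first 2 lay in introns of Tmtc1, an endoplasmic reticulum mannosyltransferase gene. One (chr6:148397967-148401196) had a signal of 329 and 460 with FGF-2 and 1993 and 1187 with serum alone (-1.98 ± 0.23). The other (chr6:148435939-148439759) had 473 and 668 with FGF-2 and 2434 and 1768 with serum alone (-1.88 ± 0.22). The local background implied by the authors' peak calls was high there, at 25.9 and 19.7 fragments with FGF-2 and 32.7 and 30.0 with serum alone at the first domain, against library medians of 1.02, 0.939, 1.03 and 1.14 in the same order. Tmtc1 RNA was too low to test.

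The remaining large losses were at domains of ordinary background. The 8 largest losses, those of Tmtc1 included, were at domains that reached 3000 bases with serum alone and not with FGF-2. Domains in introns of Arhgap6, a GTPase-activating protein gene (83.7 and 88 with FGF-2, 343 and 200 with serum alone; change -1.60 ± 0.26), and of Rnf216, a ubiquitin ligase gene (79.9 and 63 with FGF-2, 220 and 194 with serum alone; change -1.53 ± 0.27), fell while the RNA of neither gene was called. A domain 109577 bases from the start of Npr3, the natriuretic peptide clearance receptor gene, had 71.3 and 84 with FGF-2 and 231 and 184 with serum alone (-1.40 ± 0.27). Npr3 RNA fell as well, to 536 ± 70 CPM with FGF-2 against 1230 ± 94 CPM with serum alone (SD, n = 3 each; log2 change -1.20 ± 0.14, edgeR adjusted p = 0.00015). Domains tied to Cyp1b1, a cytochrome P450 that oxidises steroids and xenobiotics (-1.28 ± 0.27), and to Klhdc4 (-1.26 ± 0.25) also fell. Tns3, the gene of the focal adhesion protein tensin 3, had domains called both ways, the single gene of which this was so: one fell (155 and 105 with FGF-2, 299 and 308 with serum alone; -1.25 ± 0.26) and one rose (332 and 269 with FGF-2, 118 and 91.9 with serum alone; 1.51 ± 0.26). Tns3 RNA was 412 ± 34 CPM with FGF-2 and 384 ± 47 CPM with serum alone and was not called.

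**Figure D3:**
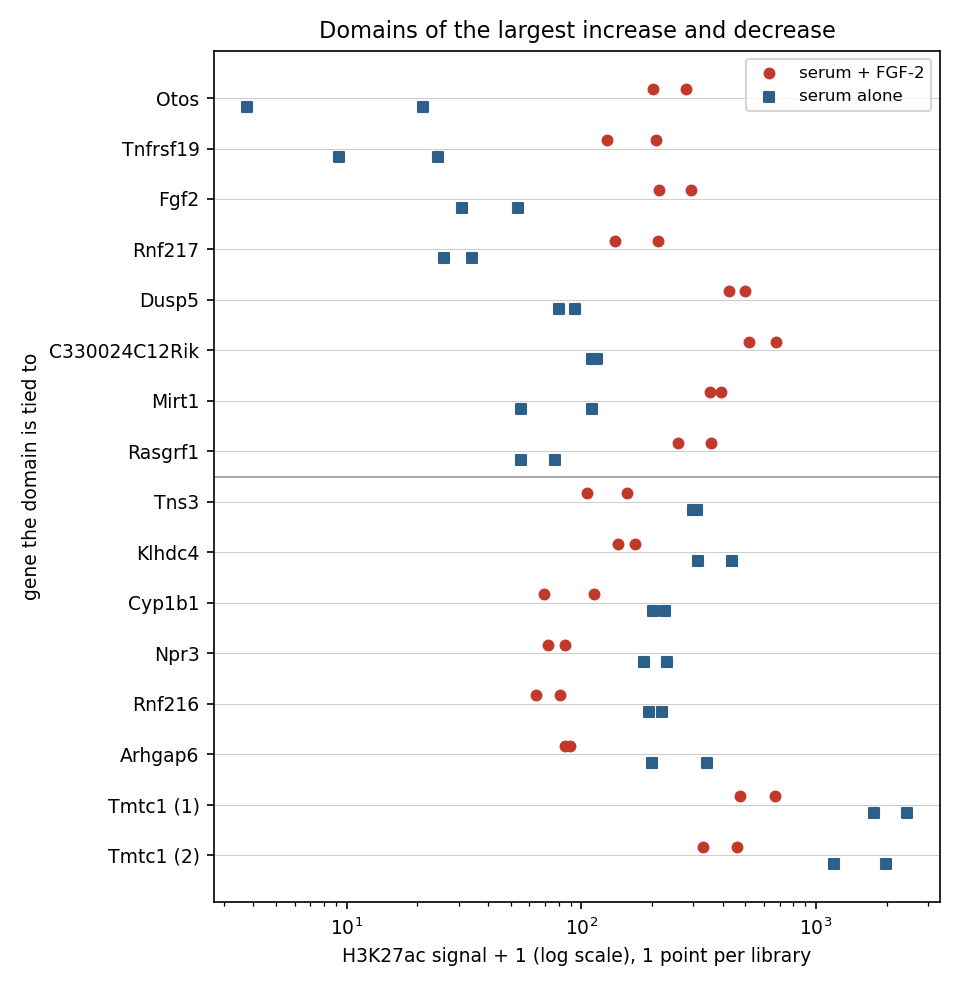
H3K27ac signal + 1 on a log scale (horizontal) in each library for the 8 domains of the largest increase and the 8 of the largest decrease, named by the gene each is tied to; circles are the 2 FGF-2 libraries and squares the 2 serum libraries. Only domains whose groups did not overlap were eligible, so no circle lies within the range of the squares of its domain.

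Domains tied to ERK feedback genes gained acetylation. Of 8 domains tied to 6 genes of that list, 7 were higher and 0 lower, with a median change of 1.06 against 0.11 for all regions. Of all regions, 12.6% were called higher and 3.73% lower, the background of domain calls for this list and those below. Of these 8, 4 reached the width limit with FGF-2 and not with serum alone, and 1 in neither group. The median change of all 149 domains that reached it with FGF-2 alone was 0.73, so the choice by width bears on this contrast. Beside the 3 Dusp5 domains, the domain of Dusp6, the cytoplasmic ERK phosphatase gene (chr10:99240304-99244585), had 545 and 514 with FGF-2 and 262 and 218 with serum alone (1.14 ± 0.24; limma adjusted p = 7.08e-05). Spry2, a Sprouty inhibitor of receptor tyrosine kinase signalling (0.98 ± 0.26), Spred2, an inhibitor of Raf activation (0.86 ± 0.25), and Dusp4, a nuclear phosphatase (0.79 ± 0.23), each had a domain called higher, and the domain of Phlda1 changed by 0.31 ± 0.24 and was not called. The RNA of all 6 genes rose, by 1.97 for Spry2 to 4.84 for Dusp5. Of the 14 tested genes in the list, with or without a domain, RNA rose in 10 and fell in 0. Of all genes tested, RNA rose in 22.1% and fell in 24.2%, the background for this list and those below. Leaving out FGF-2 library 1 or FGF-2 library 2 left 3 of the 8 domains called. The domains of Dusp4, Dusp6 and Phlda1 reached the width limit in both groups, and 2 of these 3 were called.

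Secreted ligands followed the same direction. Of 5 domains tied to Fgf2, Lif and Hbegf, 4 were higher and 0 lower (median change 0.90), against 12.6% and 3.73% of all regions. The domain 4033 bases upstream of the start of Fgf2, the gene of the added factor itself (chr3:37341315-37344620), had 292 and 212 with FGF-2 and 52.5 and 30.1 with serum alone (2.61 ± 0.28). The domain in its first intron (chr3:37359489-37363541) had 312 and 266 with FGF-2 and 90.2 and 107 with serum alone (1.54 ± 0.26). Fgf2 RNA averaged 25.7 ± 5.6 CPM with FGF-2 and 3.71 ± 2.14 CPM with serum alone (SD, n = 3 each), a rise of 2.86 ± 0.33 (edgeR adjusted p = 0.000257). Lif, an interleukin-6 family cytokine, had a domain at 0.72 ± 0.23 that was called and one at 0.42 ± 0.23 that was not, and Hbegf, an EGF receptor ligand, had one at 0.90 ± 0.25. Their RNA rose by 1.73 and 2.94. Of the 16 tested ligand genes RNA rose in 11 and fell in 0, and leaving out either FGF-2 library left 2 of the 5 domains called. The 2 Lif domains reached the width limit in both groups, and the upstream Fgf2 domain had no peak in serum alone. Of the 5 domains, 2 reached the limit with FGF-2 and not with serum alone, and 1 in neither group.

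Steroidogenic genes had few domains. Scarb1, the receptor that takes up cholesterol from high-density lipoprotein, had a domain 71025 bases from its start (chr5:125264176-125270069) with 978 and 776 with FGF-2 and 420 and 379 with serum alone (1.12 ± 0.23; limma adjusted p = 4.67e-05). Scarb1 RNA was 252 ± 62 CPM with FGF-2 and 242 ± 33 CPM with serum alone and was not called. Por, which passes electrons to microsomal cytochromes P450, had 1 intronic domain called (0.75 ± 0.24) and 1 not (0.32 ± 0.25), and its RNA rose by 1.37 ± 0.21. The domain nearest to Mc2r, the ACTH receptor gene, changed by 0.62 ± 0.25 and was not called, and Mc2r had 7 counts in all 6 RNA libraries. Of the 4 domains in this list 2 were higher and 0 lower, that of Scarb1 was the single one to reach the width limit in both groups, and 0 were called when either FGF-2 library was left out. Among all regions, 12.6% were called higher and 3.73% lower. Of the 17 tested genes in the list RNA rose in 6 and fell in 4, against 22.1% and 24.2% of all genes tested.

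Domains of the SMAD and BMP response went the other way. Of 8 domains tied to 6 genes, 0 were higher and 5 lower, against 12.6% and 3.73% of all regions, with a median change of -0.66. Of these 8, 4 reached the width limit with serum alone and not with FGF-2. They were those of Id1 and Id3 and both Smad6 domains called lower, so that their losses come with how they were chosen. The domain in an intron of Smad6, an inhibitory SMAD that BMP signalling induces (chr9:63977881-63981421), had 147 and 160 with FGF-2 and 348 and 236 with serum alone (-0.89 ± 0.25), and a further Smad6 domain fell by 0.65 on the log2 scale. The domain of Id3, a dominant-negative helix-loop-helix factor and BMP target (chr4:136133536-136136710), had 203 and 240 with FGF-2 and 462 and 334 with serum alone (-0.83 ± 0.25). Domains of Atoh8, a helix-loop-helix transcription factor, and Ski, a SMAD co-repressor, fell by 0.66 and 0.67 on the log2 scale.

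Smad6 RNA fell to 3.30 ± 1.97 CPM with FGF-2 against 53.9 ± 18.3 CPM with serum alone (-3.94 ± 0.42; edgeR adjusted p = 0.000465). Atoh8 RNA (-3.91 ± 0.35) and Id3 RNA (-1.89 ± 0.24) fell too, and Id1 is listed at 0 in every RNA library. The exception was Smad7, the other inhibitory SMAD, whose domain changed by 0.35 ± 0.23 without a call and whose RNA rose by 0.78 ± 0.12 (edgeR adjusted p = 0.000751). Of the 18 tested genes in the list RNA rose in 6 and fell in 8. With either FGF-2 library left out 0 of the 8 domains were called, although 7 of the 8 changes were negative in both cases. Of the 4 domains that reached the width limit in both groups, those of Atoh8 and Ski were lower, and 1 of Smad6 and that of Smad7 were not called.

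The other pathway lists gave no called domain. The 6 domains tied to 4 genes of the cytoskeleton, adhesion and YAP-TEAD list had 0 higher and 0 lower, with a median change of -0.062, and after centring 2 were lower. RNA rose in 11 and fell in 5 of the 27 tested genes of that list. The single domain tied to a mitotic gene, at Birc5, the gene of survivin, changed by -0.29 ± 0.25 and was not called, while Birc5 RNA fell by 1.21 on the log2 scale, and RNA fell in 22 of the 24 mitotic genes tested. No domain was tied to any of 22 AP-1 and immediate-early genes, of which 16 were tested and 10 rose and 1 fell in RNA. Among marker lists, the adrenocortical genes had the Scarb1 domain, called higher, and the Mc2r domain, the fibroblast and medulla genes had no domain, and 2 domains tied to endothelial or blood genes were not called.

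**Figure D4:**
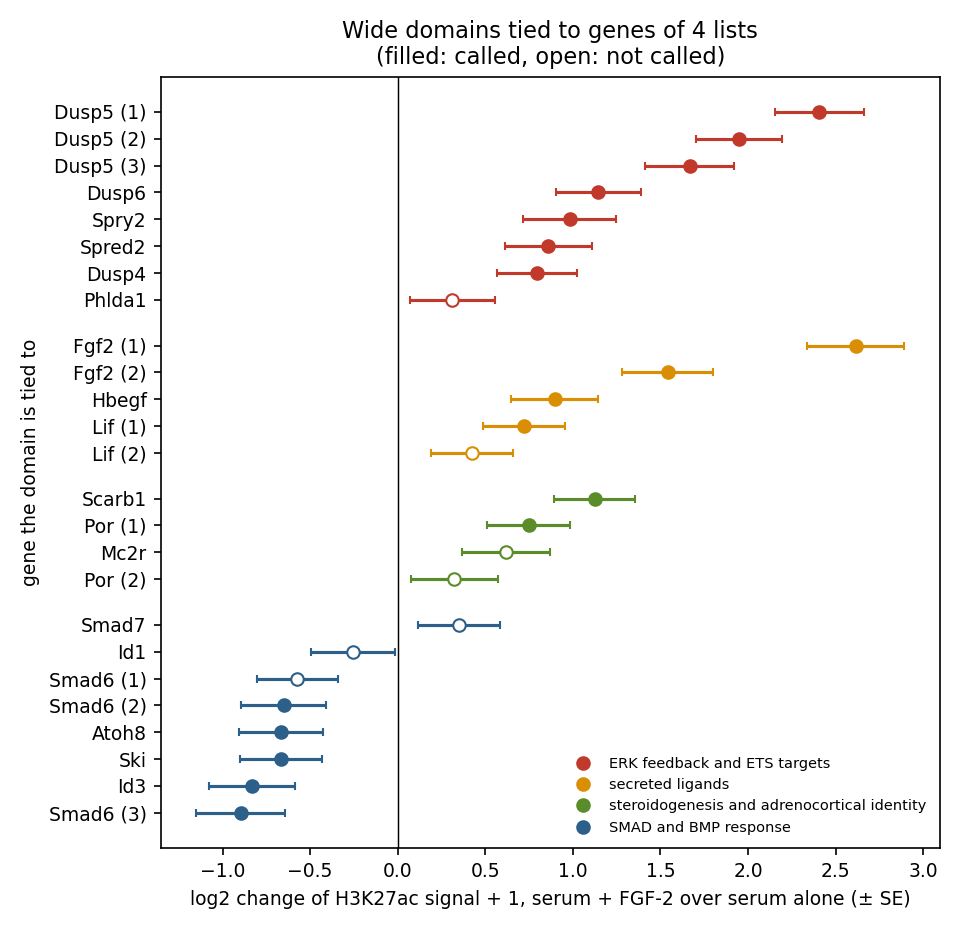
Change of H3K27ac on a log2 scale (horizontal, ± SE, 2 libraries per group) for the domains tied to genes of 4 lists, with filled points for called and open points for uncalled domains. The ERK feedback, ligand and steroidogenic domains lie to the right of 0, and 7 of the 8 SMAD and BMP domains lie to the left.

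Domains of the largest size or signal behaved unevenly. The widest, 20021 bases in an intron of the Pvt1 non-coding RNA gene (chr15:62318713-62338733), had 3619 and 3315 with FGF-2 and 2724 and 2687 with serum alone, which did not reach a call. Of the 6 widest, the one in an intron of the non-coding RNA Lncpint (chr6:31102545-31112506) was called, with 1556 and 1196 with FGF-2 and 483 and 549 with serum alone (1.40 ± 0.23; limma adjusted p = 5.88e-08). Among the 6 of highest signal, 5 belonged to the 10 domains whose implied background was over 3 times the library median in all 4 libraries. These 10 lay on chromosomes 6 (tied to Sspn, Itpr2, Stk38l and Tmtc1), 10 (Mdm2, Rassf3 and Gm9079) and 8 (Def8).

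The acetylation of those 10 domains did not all move one way. The domain of Sspn, a sarcolemmal protein gene (chr6:145976278-145981613), had the highest signal of all domains with FGF-2. It had 9448 and 8517 with FGF-2 and 6081 and 5278 with serum alone (0.66 ± 0.20). One of the Stk38l domains, at a gene of a kinase of the NDR family, was also higher (0.97 ± 0.21), and the Gm9079 domain (-0.75 ± 0.25) and both Tmtc1 domains were lower. The Gm9079 domain was not called in the authors' deposited table (false discovery rate 0.295). The Sspn background was 41.6 and 46.5 fragments with FGF-2 and 47.6 and 52.9 with serum alone, so it did not rise with the signal. Leaving out all 10 left 136 domains higher and 39 lower of 665.

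Several genes had a run of domains, and calls were seldom shared over a whole run. Of 99 symbols with 2 or more domains, 10 had all domains called higher, 3 had all called lower and 56 had none called. In 65 all changes had the same sign. The background of calls was 12.6% higher and 3.73% lower among all regions, and the choice by width bears on the calls given here. Pakap, an A-kinase anchor and paralemmin locus, had 7 intronic domains, 4 of them higher (0.69 to 0.92) and 3 not called. Zmiz1, a transcriptional coactivator gene, had 6 domains, 2 of them higher (0.71 and 0.95), and its RNA rose by 0.96 ± 0.18. Irf2bp2, a transcriptional corepressor gene, had 4 domains, of which the one 19951 bases upstream was higher (523 and 498 with FGF-2, 269 and 252 with serum alone; 0.97 ± 0.24) and 3 were not called. Irf2bp2 RNA rose by 1.36 ± 0.13. Insc, a gene of spindle orientation, had 4 domains with none called while its RNA fell by 0.94 on the log2 scale, and Pvt1 had 1 of 4 lower (-0.77 ± 0.25).

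RNA of the tied genes was then compared with the domains. Of 675 domains, 658 matched a gene of the count tables by symbol and 11 by a RefSeq synonym, which gave 529 genes, 395 of them tested. By edgeR with Benjamini-Hochberg adjustment, RNA rose in 129 (32.7%) and fell in 97 (24.6%), against a background of 22.1% and 24.2% of all 10374 genes tested. Of 84 tested genes with a domain higher and none lower, 54 rose (64.3%) and 3 fell (3.57%). Of 30 genes with a domain lower and none higher, 1 rose (3.33%) and 13 fell (43.3%). Of 280 genes with no called domain, 74 rose (26.4%) and 81 fell (28.9%). Where a domain was higher by at least 1 on the log2 scale, 30 of 42 tested genes rose and 0 fell. Where a domain was lower by at least 1, 3 of 9 tested genes fell and 1 rose. With the domains that reached the width limit in both groups alone, 14 of 19 genes with a higher domain rose and 0 fell, and 2 of 3 genes with a lower domain fell. Without FGF-2 library 1 the genes with a higher domain numbered 16, of which 14 rose, and without FGF-2 library 2 they numbered 27, of which 19 rose. The genes with a lower domain then numbered 2, of which 0 fell, and 4, of which 1 fell, and with the replicate block of H3K27ac they numbered 10, of which 3 fell. With RNA scaled by library totals alone, which lowered the median change by 0.34, 43 of the 84 rose and 9 fell. Of the 395 tested genes, 74 had 2 or more domains. Each domain was tied to the nearest start, which need not be the gene it acts on.

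Over the 395 genes the mean change of a gene's domains and its RNA change had a Pearson r of 0.53 and a Spearman coefficient of 0.51, and 66.8% had the same sign. This is a description across genes measured in the same libraries, which are not independent replicates. It takes in domains that reached the width limit in 1 group alone, so the choice by width bears on it. The 6 genes of smallest RNA p-value among those called the same way in both were Spred2, Dusp6, Mmp19, Dip2c, Tnfrsf19 and Sept9. Of their domains, that of Dusp6 reached the width limit in both groups, while those of Spred2 and Tnfrsf19 did not reach it with serum alone. Peaks of serum libraries 1 and 2 covered 63.1% and 60.7% of the Mmp19 domain. They covered 46.9% and 47.8% of the Dip2c domain and 52.1% and 48.9% of the Sept9 domain. A gain at a domain that passed through FGF-2 comes with how it was chosen. Mmp19, a matrix metalloproteinase gene, had a domain 9103 bases upstream (chr10:128778601-128781807) with 655 and 610 with FGF-2 and 288 and 237 with serum alone (1.27 ± 0.24). Its RNA averaged 2429 ± 416 CPM with FGF-2 and 281 ± 42 CPM with serum alone (SD, n = 3 each; 3.11 ± 0.18). A domain in an intron of Sept9, a septin cytoskeleton gene, changed by 1.13 ± 0.25 with RNA at 1.94 ± 0.14, and the Dip2c domain by 0.93 ± 0.26 with RNA at 1.78 ± 0.11. The Tnfrsf19 gene, whose domain is described above, had 322 ± 22 CPM with FGF-2 and 61.2 ± 14.2 CPM with serum alone (2.40 ± 0.16).

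Some called pairs ran in opposite directions. The domain in an intron of Stard13, a GTPase-activating protein gene (chr5:151068464-151071621), had 148 and 140 with FGF-2 and 289 and 341 with serum alone (-1.12 ± 0.25), while Stard13 RNA was 382 ± 34 CPM with FGF-2 and 64.9 ± 26.7 CPM with serum alone (2.57 ± 0.26; edgeR adjusted p = 0.000231). Domains were higher and RNA lower for Trerf1, a transcription factor gene described in human cells as a regulator of CYP11A1 (0.71 ± 0.26 and -1.87 ± 0.21), for Sspn (0.66 ± 0.20 and -1.69 ± 0.15) and for Ralgps1, a Ral exchange factor gene (0.96 ± 0.26 and -0.62 ± 0.19).

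Promoters of the tied genes were read in the same libraries. Of 91 symbols with a domain higher, none lower and a region within 1 kb of a start, 22 had such a promoter region called higher (24.2%) and 0 lower. Of 29 symbols with a domain lower, 0 had a promoter region higher and 4 lower (13.8%), and of 284 with no called domain, 11 were higher (3.87%) and 5 lower (1.76%). Over all 10235 symbols, 2.99% were higher and 1.67% lower. Of the 138 domains called higher, 83 reached the width limit with FGF-2 alone, and of the 42 called lower, 38 reached it with serum alone. The choice by width therefore bears on these shares, which were not tested. The Fgf2 promoter region, which holds the Fgf2 window printed above (chr3:37347162-37350304), had 260 and 264 with FGF-2 and 155 and 85.2 with serum alone (1.18 ± 0.26; limma adjusted p = 0.000127). A promoter region of Atoh8 had 17.1 and 34 with FGF-2 and 87.5 and 47.6 with serum alone (-1.38; limma adjusted p = 0.00114). No region of the table overlaps the Dusp5 window, and the region nearest to that start changed by 1.46 (349 and 309 with FGF-2, 110 and 128 with serum alone). At Scarb1 and Npr3 the promoter region within 1 kb changed by 0.058 and -0.27 without a call, although a domain of each was called.

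The width limit fell within a continuous range. Just inside it were a domain of 3000 bases tied to Zfp24 (253 and 223 with FGF-2, 379 and 296 with serum alone) and one of 3001 bases tied to Bcor (218 and 258 with FGF-2, 262 and 197 with serum alone). Just outside were regions of 2998 bases tied to Gm20750 and of 2997 bases tied to Kremen1, whose log2 changes were -0.40 and 0.33.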

How the data were processed

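Counts of reads per gene were deposited by the authors for RNA (STAR 2.5.2a and HTSeq 0.10.0, build mm10, per the submitters' processing notes). The deposited signal per region, log2 fold, p-value and false discovery rate came from DiffBind, and the annotation from ChIPseeker, per the submitters' processing notes. Whether input was subtracted is not given in the sources used here. Per the file headers, peaks with their pileup signal, fold enrichment ratio and −log10 p and q values were called by MACS2 2.2.6 in each library against its own input. Distances and widths are the authors' deposited values, and no input signal was used otherwise.

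Signal was tested as log2(signal + 1) with limma 3.58.1 (trend, robust) over all regions, and RNA with edgeR 4.0.16 (quasi-likelihood, TMM, filterByExpr), in R 4.3.3, both with Benjamini-Hochberg adjustment at 0.05. CPM values are TMM-scaled. Reads outside genes, 37.0% to 43.2% of each RNA library, were left out. Whole reads were recovered from at least 99.998% of signal values within 0.02 reads, and edgeR was run on them. The limma test of H3K27ac and the edgeR test of RNA were checked on simulated data, and the alternative tests were not. Replicates differed beyond sampling noise (chi-square per degree of freedom 2.53 with FGF-2 and 2.43 with serum alone).

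Merged peaks of each group were also measured inside each domain. Named domains were the 8 largest increases and decreases without overlap, the 6 widest, the 6 of highest signal, those of genes with at least 4 domains, those of listed genes, the 6 genes called alike and up to 4 called in opposite ways, and those at the width limit; other names were chosen after their values were seen. Domains and lists were chosen with earlier results of these data known. Region coordinates are mm10; 98.4% of 15879 tied transcripts lay inside the RefSeq gene of GRCm38.p6 within 1000 bases. Genome sequence of whole domains was not used here.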

Additional observations from a re-analysis of the deposited data

How the results depend on the processing

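Pseudocounts of 0.5 and 5, a minimum mean signal of 10, reads over all fragments, and the authors' deposited test left the counts of domains higher and lower within 1.5 times of 138 and 42. The domains called lower rose to 120 after centring on the median region and to 140 by edgeR on recovered reads, and the median change of the domains was -0.0081 and 0.038 there. Centring lowers every change by 0.18 and edgeR lowered the median change by 0.13, and serum library 2 had the smallest share of its fragments in regions. Leaving out 1 library at a time gave 27 to 263 domains higher, 6 to 121 lower and a median change of 0.049 to 0.29. The lone library of a group was then assumed to vary like the other group. Domains of at least 2000 bases numbered 2035, with 382 higher and 141 lower, and those of at least 5000 bases had 32 higher and 4 lower. The 243 domains that reached 3000 bases from the peaks of each group by itself, an alternative chosen after seeing the data, had 30 higher and 4 lower. The H3K27ac libraries share only a number: deviations of same-numbered libraries correlated at -0.22 over all regions and -0.62 over the domains, a replicate block gave 84 higher and 17 lower, and it left 5 of 8 ERK feedback and 0 of 8 SMAD and BMP domains called. Crossed pairing, an alternative chosen after seeing the data, gave 182 higher and 67 lower. For RNA the same-numbered correlations were -0.10, 0.066 and 0.38, and the block left 54 of the 84 genes with a higher domain called as risen. RNA scaled by library totals gave 81 tied genes risen and 165 fallen, with the median change lower by 0.34. The correlation of domain and RNA change was 0.51 with the widest domain of each gene and 0.55 within 100000 bases of a start. Scarb1 RNA, not called, changed sign with upper-quartile scaling (-0.085) and library totals (-0.29), and ran from -0.14 to 0.22 when 1 library was left out. Of the 56 named domains that were called or are given with a change, 0 changed sign in the 13 alternatives. Uncalled named domains with changes near 0 are not among the 56, and some of them changed sign. The count of 0 was thus largely set by how the 56 were chosen. After centring, the domain of Bcor went from 0.061 to -0.12 and that of Mdm2 from 0.098 to -0.084. With 2 libraries per group the SE of a domain was 0.20 to 0.38, and the smallest changes called were 0.62 higher and -0.65 lower.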
